A study of Homo sapiens with 18 samples.

Results

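A set of 10 genes of the S100 family on human chromosome 1q21 was examined for the positions of linker histone H1.2 and H1.5 peaks in undifferentiated HL-60/S4 cells. The 10 genes, of 20098 protein-coding genes measured in the same way, were chosen by name, with no rule on measured values. They were placed in classes by where the protein is best known. Earlier results of these data were known when genes and classes were chosen. S100A8, S100A9 and S100A12 formed the myeloid class, S100A7 the epidermal class, and S100A4, S100A6, S100A10, S100A11, S100A13 and S100A16 the ubiquitous class of broadly expressed genes. HL-60/S4 is an established human myeloid leukemia cell line, grown here in suspension without any differentiating agent, and every sample came from it. Chromatin was immunoprecipitated with a rabbit polyclonal antibody to H1.2 or to H1.5 in a pair of protocols. In xChIP the formaldehyde-fixed chromatin was sonicated before the antibody was added, whereas in xxChIP the antibody bound inside fixed, permeabilized cells, which were then fixed again and sonicated. With 3 replicates per antibody and protocol there were 12 immunoprecipitated samples, and the peaks of each set of 3 were deposited as 1 merged list, 4 lists in all. The other 6 samples were inputs and were not used here.

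The xChIP lists held 142926 peaks for H1.2 and 139938 for H1.5, and the xxChIP lists held 143193 and 138491. Of chromosomes 1 to 22 and X, gaps included, xChIP H1.2 peaks covered 24.6%, xChIP H1.5 peaks 15.2%, xxChIP H1.2 peaks 18.8% and xxChIP H1.5 peaks 16.03%, and of chromosome 1 these shares were 27.5%, 17.1%, 20.96% and 18.7%. A peak was given as a position only, without height, score or reads. Neither the depth nor the spread between replicates could therefore be measured, no comparison between lists or between genes could be tested, and a base outside the peaks is a base at which no peak was called, not a base without H1. The values are descriptive throughout, and neighbours in an order of coverage cannot be told apart statistically. The identity of the cells could not be checked against marker genes with peak positions alone.

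S100 proteins are small calcium-binding proteins of the EF-hand type, most of which act as dimers that bind a target protein when calcium rises. S100A8 and S100A9 pair to form calprotectin, a dominant cytosolic protein of neutrophils and monocytes that withholds metal ions from microbes, and S100A12, or calgranulin C, is a related granulocyte protein that signals through the receptor RAGE. S100A7, or psoriasin, is an antimicrobial protein of the epidermis. Most S100 genes lie in a cluster at 1q21 interrupted by the epidermal differentiation complex, a group of genes for the proteins of the cornified skin envelope. Linker histones of the H1 family bind the nucleosome where the DNA enters and leaves it and help chromatin to compact.

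The 250 bases before the canonical transcription start site (TSS) are shown for the 3 myeloid genes and the epidermal gene, and for S100A10 and S100A11, the pair of ubiquitous genes that lies beyond the epidermal differentiation complex, because the groups differed in CpG content here. The sequences were read from GRCh37 (hg19) on the strand of each gene, 5′ to 3′, and capitals mark CpG dinucleotides. The regions are chr1:153330080-153330329 on the plus strand for S100A9, and, on the minus strand, chr1:153363550-153363799 for S100A8, chr1:153348098-153348347 for S100A12, chr1:153433128-153433377 for S100A7, chr1:151966336-151966585 for S100A10 and chr1:152009481-152009730 for S100A11.
S100A9: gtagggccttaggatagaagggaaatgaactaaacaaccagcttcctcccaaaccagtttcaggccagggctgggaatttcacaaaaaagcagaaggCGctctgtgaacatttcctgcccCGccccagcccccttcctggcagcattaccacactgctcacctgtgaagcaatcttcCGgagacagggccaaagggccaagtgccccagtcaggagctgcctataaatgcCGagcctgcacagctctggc
S100A8: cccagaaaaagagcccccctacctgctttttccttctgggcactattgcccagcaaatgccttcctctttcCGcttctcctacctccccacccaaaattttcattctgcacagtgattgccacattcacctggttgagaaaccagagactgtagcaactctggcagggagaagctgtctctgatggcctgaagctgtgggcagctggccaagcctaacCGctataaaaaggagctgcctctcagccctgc
S100A12: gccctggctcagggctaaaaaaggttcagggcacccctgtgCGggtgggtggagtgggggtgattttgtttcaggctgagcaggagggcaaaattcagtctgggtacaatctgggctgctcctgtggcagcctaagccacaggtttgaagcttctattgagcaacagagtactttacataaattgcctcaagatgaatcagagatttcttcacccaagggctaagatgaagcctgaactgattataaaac
S100A7: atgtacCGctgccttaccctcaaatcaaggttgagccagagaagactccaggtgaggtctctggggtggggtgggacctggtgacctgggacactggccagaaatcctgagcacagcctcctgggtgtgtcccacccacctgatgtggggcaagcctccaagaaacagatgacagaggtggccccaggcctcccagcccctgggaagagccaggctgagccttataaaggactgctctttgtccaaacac
S100A10: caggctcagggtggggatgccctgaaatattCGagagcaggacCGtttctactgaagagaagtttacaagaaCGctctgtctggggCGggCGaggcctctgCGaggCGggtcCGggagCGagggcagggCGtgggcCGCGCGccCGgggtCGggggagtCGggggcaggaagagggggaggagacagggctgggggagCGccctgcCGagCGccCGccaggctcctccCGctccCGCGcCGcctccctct
S100A11: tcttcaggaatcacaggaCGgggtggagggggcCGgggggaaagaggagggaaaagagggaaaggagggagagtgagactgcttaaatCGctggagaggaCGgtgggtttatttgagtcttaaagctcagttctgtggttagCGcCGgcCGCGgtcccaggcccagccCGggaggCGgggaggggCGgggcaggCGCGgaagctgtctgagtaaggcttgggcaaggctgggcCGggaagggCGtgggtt

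The upstream region of S100A9 held 4 CpG, that of S100A8 2, and those of S100A12 and S100A7 1 each. By contrast, S100A10 held 24 CpG and S100A11 held 15. The other ubiquitous genes ran from 1 CpG in S100A16 through 7 in S100A4 and 10 in S100A13 to 24 in S100A6, so the classes overlapped. The hexamer TATAAA on the gene's strand was present upstream of 6 of the 10 genes, namely the 3 myeloid genes, S100A7, S100A4 and S100A13, against 6.91% of all protein-coding genes. With either strand counted, the figures were 6 of 10 and 9.42%. Over TSS ± 1000 bp the observed to expected CpG ratio was 0.181 at S100A9, 0.189 at S100A8, 0.219 at S100A12 and 0.0922 at S100A7. It was 0.719 at S100A10 and 0.671 at S100A11, and between 0.164 and 0.345 at the 4 other ubiquitous genes. The median was 0.216 over the 10 genes and 0.635 over all protein-coding genes.

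Peaks at the promoters of the 10 genes were counted beside those of all protein-coding genes. At least 1 base of the promoter, taken as TSS ± 1000 bp, lay in a peak at 3 of 10 genes for xChIP H1.2, where 47.2% of all protein-coding genes did so. It was 1 of 10 against 20.7% with xChIP H1.5, 1 of 10 against 7.87% with xxChIP H1.2, and 1 of 10 against 7.14% with xxChIP H1.5. The xxChIP counts were thus near the background. The xChIP counts were below it by few genes, which a set of 10 genes cannot set apart from the background. The promoters of S100A8, S100A9, S100A7, S100A4 and S100A6 held no peak in any list, 5 of 10 genes against 39.5% of all genes. S100A10, S100A11 and S100A13 had a promoter peak in xChIP lists alone, 3 of 10 against 48.1%. S100A12 had one in the xxChIP lists alone, 1 of 10 against 6.52%. S100A16 had one in both protocols, 1 of 10 against the genes left outside the 39.5%, 48.1% and 6.52%.

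Gene bodies, from the first to the last annotated base, were overlapped at 2 of 10 genes by xChIP H1.2 peaks, against 82.9% of all genes. The counts were 2 of 10 against 70.3% with xChIP H1.5, 1 of 10 against 60.6% with xxChIP H1.2, and 1 of 10 against 58% with xxChIP H1.5. The S100 genes are short, with a median length of 4715 bp against 27256.5 bp over all protein-coding genes, and the part of length in these counts was not tested. S100A8, S100A9, S100A7, S100A6 and S100A4 had no base of their body in a peak of any list. The share of all protein-coding genes in that state was not measured, so this has no background beside it. The heat map of coverage gives the share for every gene and list.

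**Figure D1:**
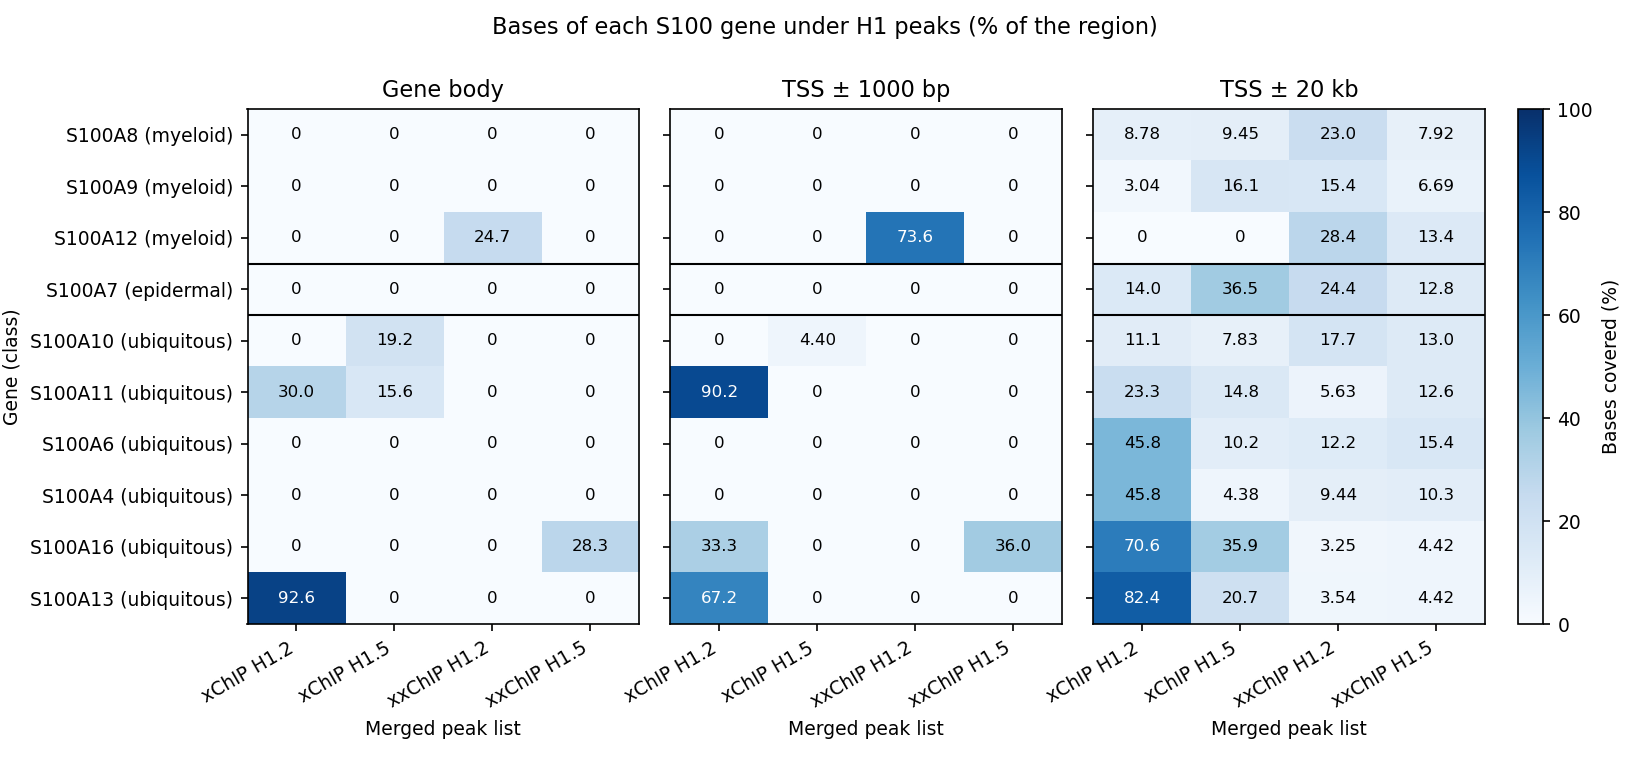
Percent of bases under H1 peaks for each of the 10 S100 genes (rows) in the 4 merged lists (columns), for the gene body, TSS ± 1000 bp and TSS ± 20 kb; the number in each cell is the value. Most body and promoter cells are 0, and the most covered windows are those of S100A16 (70.6%) and S100A13 (82.4%) in xChIP H1.2.

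The myeloid genes lay in a stretch without xChIP peaks. S100A9, S100A12 and S100A8 sit within 33220 bp of each other, and both xChIP lists left that span bare, while xxChIP H1.2 peaks took up 34.2% of it and xxChIP H1.5 peaks 16.2%. The stretch free of xChIP peaks for both antibodies ran from 153324228 to 153379770, a length of 55543 bp that held all 3 genes. The TSS of 1.25% of protein-coding genes lay in an xChIP-free stretch at least as long, while 39.0% lay inside an xChIP peak and the median over all genes was 4980 bp. For xChIP H1.2 alone the stretch was 55810 bp, and 6.20% of genes had one at least as long. For xChIP H1.5 alone it was 63005 bp, and 10.3% of genes had one at least as long. This stretch was singled out after its values were seen.

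S100A9 (ENSG00000163220; chromosome 1, 153330330 to 153333499, plus strand) had no peak over its 3 exons, its introns or its promoter. Within TSS ± 20 kb, 3.04% of bases lay in xChIP H1.2 peaks, 16.1% in xChIP H1.5 peaks, 15.4% in xxChIP H1.2 peaks and 6.69% in xxChIP H1.5 peaks. Only 5.16% of protein-coding genes had as little xChIP H1.2 coverage or less. The xChIP coverage was all on the upstream side, 6.09% for H1.2 and 32.2% for H1.5, whereas 25.1% of the downstream side was covered in xxChIP H1.2 and 13.4% in xxChIP H1.5. The nearest xChIP H1.2 peak ended 6103 bp upstream of the TSS. No peak of any list lay in the 17109 bp around this TSS, a length that 6.88% of genes reached or exceeded.

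S100A12 (ENSG00000163221; 153346187 to 153348097, minus strand) was the 1 member with no xChIP peak anywhere in TSS ± 20 kb, a state shared by 178 of 20098 protein-coding genes, or 0.886%. Its window was covered to 0% in xChIP H1.2 and in xChIP H1.5, to 28.4% in xxChIP H1.2 and to 13.4% in xxChIP H1.5. The xxChIP H1.2 value was the highest among the 10 genes, and 10.4% of all genes reached it. A single xxChIP H1.2 peak of 9040 bp, chr1:153347626-153356665, spanned positions −8568 to 471 relative to the TSS. It took in 70 bp of exon and 402 bp of intron, 24.7% of the gene body, and 73.6% of the promoter. A shorter xxChIP H1.5 peak of 2704 bp, chr1:153353900-153356603, lay within the same interval, upstream of the promoter.

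S100A8 (ENSG00000143546; 153362508 to 153363549, minus strand), the shortest of the 10 genes at 1042 bp, lay with its promoter outside every peak. Coverage of TSS ± 20 kb was 8.78% in xChIP H1.2, 9.45% in xChIP H1.5, 23.04% in xxChIP H1.2 and 7.92% in xxChIP H1.5. Its xxChIP peaks were all on the downstream side, toward S100A12, where 46.1% of bases were covered in xxChIP H1.2 and 15.8% in xxChIP H1.5. Its xChIP peaks were all on the upstream side, 16489 bp from the TSS for H1.2 and 16222 bp for H1.5. The 23105 bp from 153356666 to 153379770, which contain the gene, held no peak of any list, and 2.61% of genes lay in such a gap at least as long.

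The windows of the 3 myeloid genes share sequence, with 55.6% of a window common to S100A9 and S100A12, 61.4% to S100A12 and S100A8, and 17.0% to S100A9 and S100A8. Counted once, the 73220 bp of the 3 windows had 6.46% of their bases in xChIP H1.2 peaks and 13.95% in xChIP H1.5 peaks, with 17.1% and 7.35% in the xxChIP lists. By list combination, 14.1% of these bases were in xChIP peaks alone, 16.001% in xxChIP peaks alone, 1.55% in peaks of both protocols and 68.4% in none. Over the windows of all protein-coding genes the same shares were 37.7%, 10.996%, 7.87% and 43.4%.

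**Figure D2:**
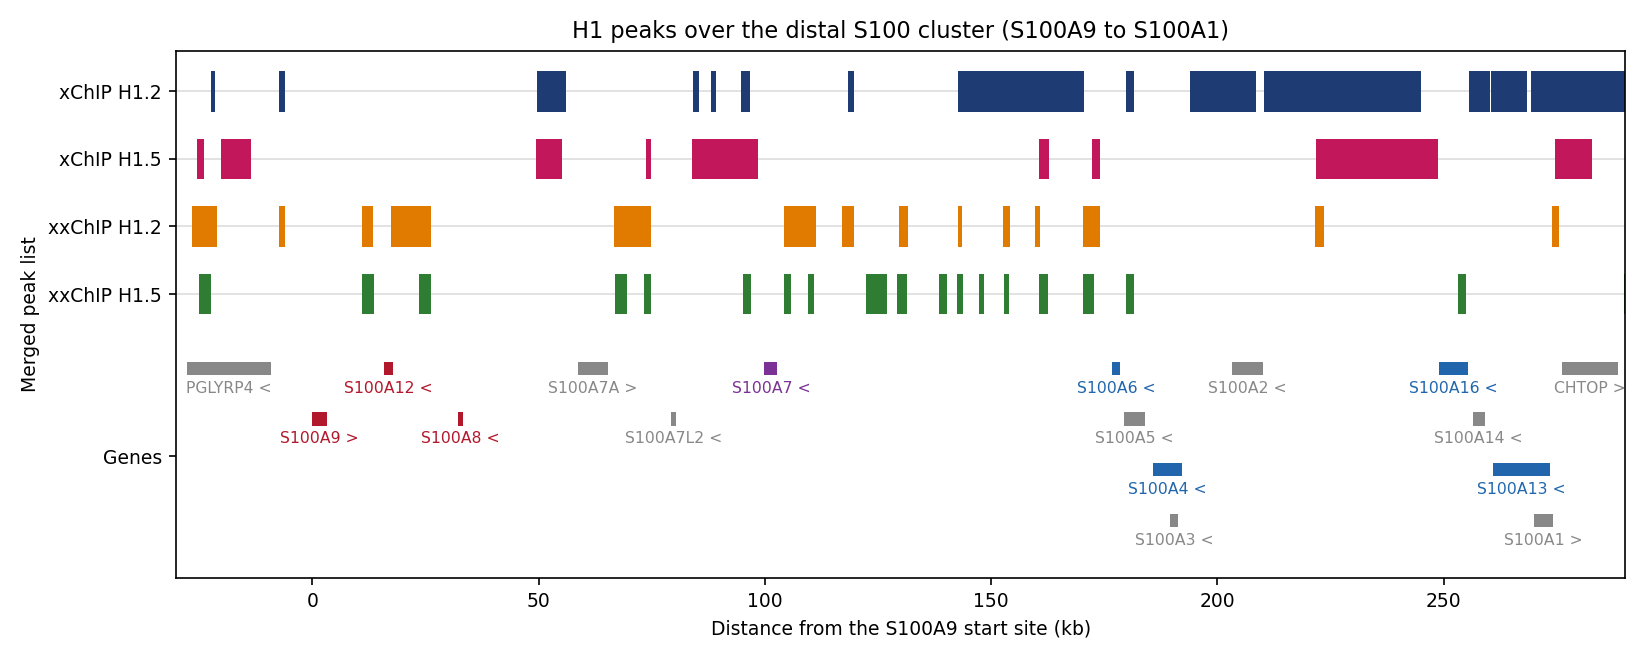
Map of merged H1 peaks (filled blocks, 1 row per list) and genes (bars below, with the direction of transcription as < or >) against distance in kb from the S100A9 start site; red marks myeloid, purple epidermal, blue ubiquitous and grey other genes. The xChIP rows are empty over S100A9, S100A12 and S100A8, both xxChIP rows hold peaks in the span between these genes, of which only an xxChIP H1.2 peak reaches a gene, S100A12, and the xChIP H1.2 row is nearly filled toward S100A13.

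S100A7 (ENSG00000143556; 153430220 to 153433127, minus strand) lay between peaks of the 4 lists. Neither its body nor its promoter was touched, and the gap around its TSS that was free of any peak was 5715 bp, against a median of 3003 bp over all genes. Its TSS ± 20 kb window was covered to 13.96% in xChIP H1.2, 36.5% in xChIP H1.5, 24.4% in xxChIP H1.2 and 12.8% in xxChIP H1.5. The xChIP H1.5 value was the highest of the 10 genes, and 10.7% of all genes reached it. It came from 1 peak of 14607 bp, chr1:153414165-153428771, downstream of the gene, where 73.035% of the 20 kb was covered and 0% upstream. The xxChIP H1.2 peaks were on the other side, with 48.8% of the upstream 20 kb and 0% of the downstream 20 kb covered. The remaining lists had peaks on both sides. Upstream and downstream shares were 6.305% and 21.6% in xChIP H1.2, and 16.8% and 8.845% in xxChIP H1.5. The nearest xxChIP peaks began 1360 bp upstream of the TSS for H1.2 and 1376 bp upstream for H1.5. Of the bases in this window, 25.7% were in xChIP H1.5 peaks without an xChIP H1.2 peak, against 5.82% over all genes.

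The 6 ubiquitous genes fell at 3 places. S100A6, or calcyclin, and S100A4, or metastasin, a partner of non-muscle myosin, are neighbours whose windows share 75.5% of their bases. S100A6 (ENSG00000197956; 153507075 to 153508720, minus strand) had 45.8% of TSS ± 20 kb in xChIP H1.2 peaks, 10.2% in xChIP H1.5, 12.2% in xxChIP H1.2 and 15.4% in xxChIP H1.5. S100A4 (ENSG00000196154; 153516089 to 153522612, minus strand) had 45.8%, 4.38%, 9.44% and 10.3% in the same order. The equal xChIP H1.2 values, 18325 bp each, arose because the shift between the windows lost as much of a peak on 1 side as it gained on the other. Both genes lay between xChIP H1.2 peaks of 27884 bp and 14626 bp, with another of 1637 bp in between, and 39.6% of all genes had as much coverage or more. Even so, neither body nor promoter held a peak of any list. The nearest peaks to S100A6 began 1730 bp upstream for xxChIP H1.5 and 1754 bp upstream for xChIP H1.2, and the gap free of any peak was 5863 bp at S100A6 and 12410 bp at S100A4, the latter reached by 14.04% of genes.

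S100A16 and S100A13, the latter known for its part in the release of the growth factor FGF1, lay at the far end of the cluster and had the most xChIP H1.2 coverage. S100A13 (ENSG00000189171; 153591263 to 153603836, minus strand) had 82.4% of TSS ± 20 kb in xChIP H1.2 peaks, 20.7% in xChIP H1.5, 3.54% in xxChIP H1.2 and 4.42% in xxChIP H1.5. In xChIP H1.2, 92.6% of its gene body and 67.2% of its promoter were covered, whereas the other lists covered 0% of either. A peak of 8003 bp, chr1:153590701-153598703, took in 240 bp of its exons and 7189 bp of its introns. A further peak of 119648 bp, chr1:153599637-153719284, began within the gene, covered the TSS and the whole upstream 20 kb, and overlapped 7 protein-coding genes, S100A13, S100A1, CHTOP, SNAPIN, ILF2, NPR1 and INTS3. Only 299 peaks of the xChIP H1.2 list, 0.209%, were at least as long.

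S100A16 (ENSG00000188643; 153579362 to 153585621, minus strand) shares 64.1% of its window with S100A13 and had 70.6% in xChIP H1.2 peaks, 35.9% in xChIP H1.5, 3.25% in xxChIP H1.2 and 4.42% in xxChIP H1.5. Its body lay outside every xChIP peak in spite of this. An xChIP H1.2 peak of 4628 bp, chr1:153585947-153590574, started 334 bp upstream of the TSS and covered 33.3% of the promoter as well as the promoter of S100A14. An xxChIP H1.5 peak of 1769 bp, chr1:153583565-153585333, lay in an intron, 280 to 2048 bp downstream of the TSS, and covered 28.3% of the body and 36.0% of the promoter. S100A16 thus had peaks of both protocols in its promoter, but at separate positions on either side of the TSS.

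S100A10, the light chain partner of annexin A2, and S100A11, or calgizzarin, lie on the other side of the epidermal differentiation complex. S100A10 (ENSG00000197747; 151955391 to 151966335, minus strand) had 11.1% of TSS ± 20 kb in xChIP H1.2 peaks, 7.83% in xChIP H1.5, 17.7% in xxChIP H1.2 and 13.04% in xxChIP H1.5. It was the 1 ubiquitous gene with more xxChIP H1.2 than xChIP H1.2 coverage. An xChIP H1.5 peak of 2099 bp, chr1:151963324-151965422, lay in an intron from 913 bp downstream of the TSS and reached 88 bp into the promoter, 4.398% of it. That peak covered 19.2% of the gene body, and the other 3 lists covered none of it.

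S100A11 (ENSG00000163191; 152004982 to 152020383, minus strand) had 23.3% of TSS ± 20 kb in xChIP H1.2 peaks, 14.8% in xChIP H1.5, 5.63% in xxChIP H1.2 and 12.6% in xxChIP H1.5. Its CpG-rich promoter was the most covered of the 10, to 90.2%, by an xChIP H1.2 peak of 4623 bp, chr1:152005662-152010284, that ran from position −804 to 3818 relative to the TSS. This peak took in 245 bp of exon and 3574 bp of intron of the canonical transcript. An xChIP H1.5 peak of 2403 bp, chr1:152013392-152015794, lay upstream of the canonical TSS, from position −6314 to −3912, within the longer annotated extent of the gene. S100A10 and S100A11 had the highest CpG ratios of the 10 genes, and their promoters differed in xChIP H1.2, with 0% covered at S100A10.

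**Figure D3:**
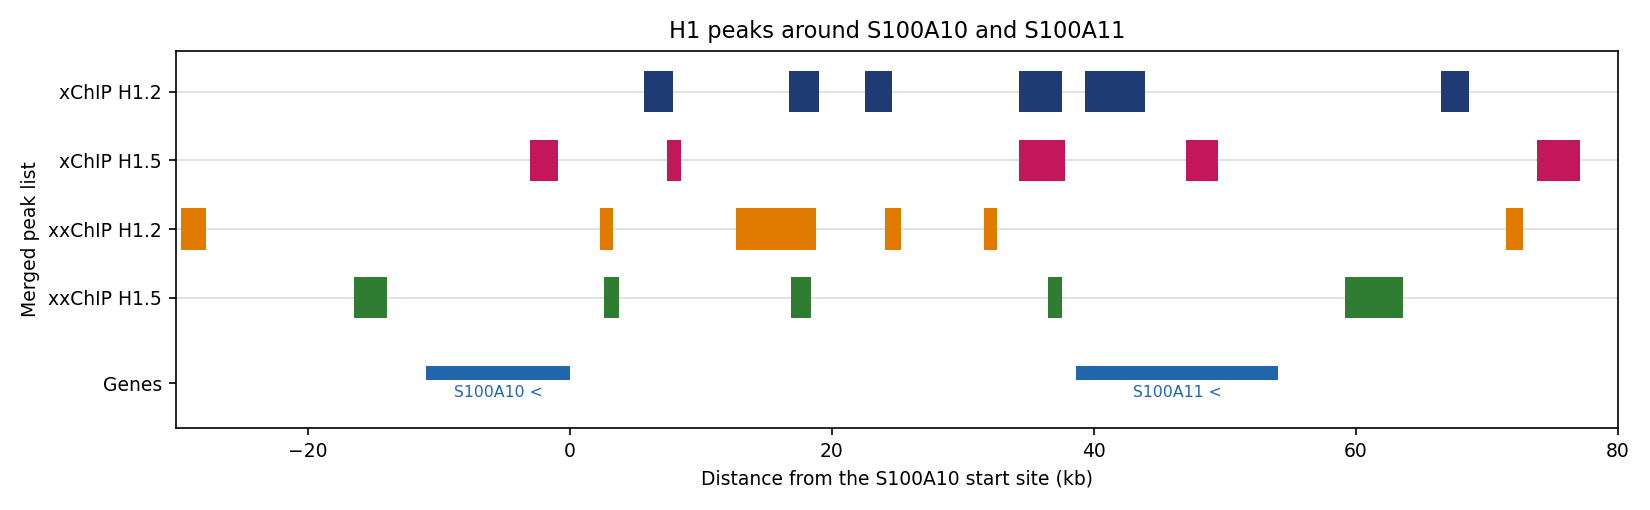
Map of merged H1 peaks (filled blocks, 1 row per list) and of S100A10 and S100A11 (blue bars, both transcribed leftward) against distance in kb from the S100A10 start site. The peaks are short and scattered in every list, and an xChIP H1.2 peak of 4623 bp lies over the canonical start of S100A11.

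The classes were then set side by side. In xChIP H1.2 the median coverage of TSS ± 20 kb was 3.04% over the 3 myeloid genes (range 0% to 8.78%), 13.96% at S100A7, and 45.8% over the 6 ubiquitous genes (range 11.1% to 82.4%), beside 34.5% over all protein-coding genes. All 3 myeloid genes were below all 6 ubiquitous genes in this list, and 14.9% of all genes were at or below the highest myeloid value. The 3 myeloid windows overlap in 1 stretch, and those of S100A6 and S100A4 share 75.5%, so the genes are not separate observations. Other S100 genes beside the distal ubiquitous genes ran from 43.4% at S100A3 to 84.8% at S100A1. S100A7A and S100A7L2, beside S100A7, had 15.8% and 10.8%. The part of position along 1q21 was not tested. In xxChIP H1.2 the ubiquitous genes had the lowest median instead, with 23.04% for the myeloid genes, 24.4% for S100A7 and 7.53% for the ubiquitous genes, beside 7.79% over all genes. Here the ranges met, since S100A10 at 17.7% exceeded S100A9 at 15.4%.

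In the H1.5 lists the myeloid and ubiquitous medians were within 4 percentage points of each other at this window width. Medians in xChIP H1.5 were 9.45% for the myeloid genes, 36.5% for S100A7, 12.5% for the ubiquitous genes and 13.4% for all genes. In xxChIP H1.5 they were 7.92%, 12.8%, 11.4% and 6.12%. The myeloid minus ubiquitous difference of medians was −42.8 percentage points in xChIP H1.2, −3.01 in xChIP H1.5, 15.5 in xxChIP H1.2 and −3.51 in xxChIP H1.5. The xxChIP H1.2 difference became 9.47 with TSS ± 50 kb and 8.58 over the windows counted once. The xChIP H1.5 difference became −16.8 with TSS ± 10 kb. The xxChIP H1.5 difference changed direction with the window, to 6.51 with TSS ± 10 kb and 1.24 with TSS ± 50 kb.

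**Figure D4:**
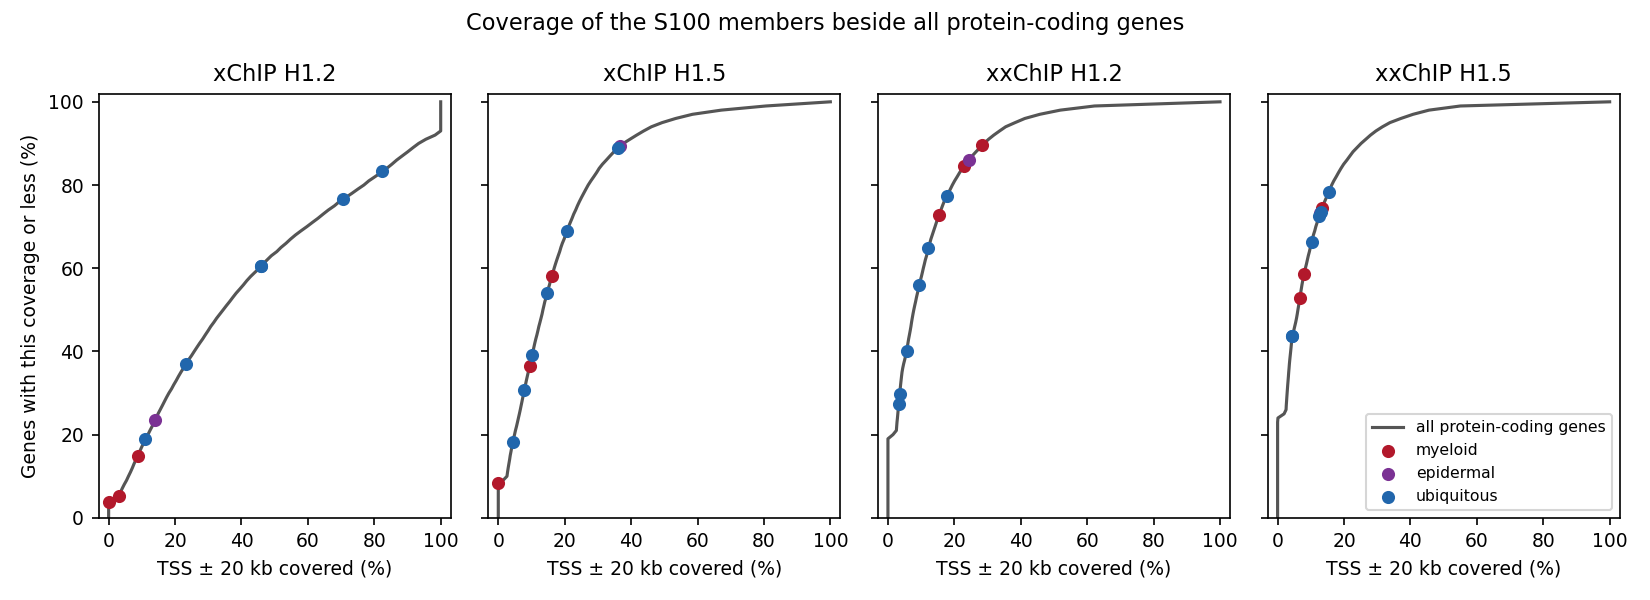
Cumulative share of protein-coding genes (y axis, percent) by coverage of TSS ± 20 kb (x axis, percent) in each list, with the 10 S100 genes as points colored by class. In xChIP H1.2 the 3 myeloid points lie at the low end, at or below 14.9% of genes, and in xxChIP H1.2 they lie in the upper part of the curve, between 72.9% and 89.6%.

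The protocols were compared for the same antibody. Coverage of TSS ± 20 kb was higher in xChIP H1.2 than in xxChIP H1.2 for 5 of 10 genes, S100A11, S100A6, S100A4, S100A16 and S100A13, where 76.3% of all protein-coding genes were higher. The other 5 genes were the 3 myeloid genes, S100A7 and S100A10. The difference ran from −28.4 percentage points at S100A12 to 78.9 at S100A13, with a median of 5.55 over the 10 genes and 24.8 over all genes. For H1.5, 6 of 10 genes were higher in xChIP, near the 65.7% of all genes. The median difference was 1.86 points over the 10 genes and 5.74 over all genes, and S100A16 had the largest, 31.5 points. Of the myeloid genes, only S100A12 was lower in xChIP for both antibodies, since S100A9 and S100A8 were higher in xChIP for H1.5, by 9.40 and 1.53 points.

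The antibodies were compared within a protocol. In xChIP, 6 of 10 genes, all of them ubiquitous, had more H1.2 than H1.5 coverage, against 79.4% of all genes. The difference was −0.667 points at S100A8, −13.04 at S100A9 and −22.6 at S100A7, and S100A12 had none of either. In xxChIP, 5 of 10 genes had more H1.2 than H1.5 coverage, near the 53% of all genes, and these were the 3 myeloid genes, S100A7 and S100A10. The 4 comparisons use each list in 2 of them. The lists also differ in how much they cover, so each coverage was divided by the list's median over all genes. With this scaling xChIP H1.2 exceeded xxChIP H1.2 at 3 of 10 genes, against 50.7% of all genes, and exceeded xChIP H1.5 at 3 of 10, against 47.3%. For xChIP H1.5 over xxChIP H1.5 the count was 4 of 10 against 49.1%, and within xxChIP it was 5 of 10 against 44.7%.

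Counted once, the windows of the 10 genes spanned 297408 bp in 6 stretches, of which 31.9% lay in xChIP H1.2 peaks and 20.1% in xChIP H1.5 peaks, with 12.7% and 9.65% in the xxChIP lists. Peaks of both protocols held 5.30% of the bases, beside 36.0% in xChIP peaks alone, 12.7% in xxChIP peaks alone and 45.9% in none, shares near the 7.87%, 37.7%, 10.996% and 43.4% over all protein-coding genes. No base of the myeloid or epidermal windows was in peaks of all 4 lists, and 0.172% of the ubiquitous windows was, against 0.470% over all genes.

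The position along 1q21 was followed in blocks. From S100A10 to S100A11, 64993 bp were covered to 22.1% in xChIP H1.2, 13.9% in xChIP H1.5, 14.4% in xxChIP H1.2 and 5.68% in xxChIP H1.5. The 1309946 bp between S100A11 and S100A9, which hold the epidermal differentiation complex, were covered to 20.5%, 17.6%, 26.6% and 30.4% in the same order, so that the xxChIP lists covered more than the xChIP lists there. From S100A9 to S100A1, 274186 bp were covered to 39.5%, 19.1%, 14.8% and 12.5%. Within that block the 44132 bp from S100A7A to S100A7 were covered to 9.80%, 35.6%, 18.2% and 13.5%, and the 96762 bp from S100A6 to S100A13 to 70.0%, 27.9%, 2.03% and 3.55%. Of these smaller blocks, xChIP H1.2 peaks thus covered more of the one with the ubiquitous genes. The xChIP H1.5 list and both xxChIP lists covered more of the one with S100A7. The sequence between S100A7 and S100A6 lies in neither block and also held peaks of every list.

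**Figure D5:**
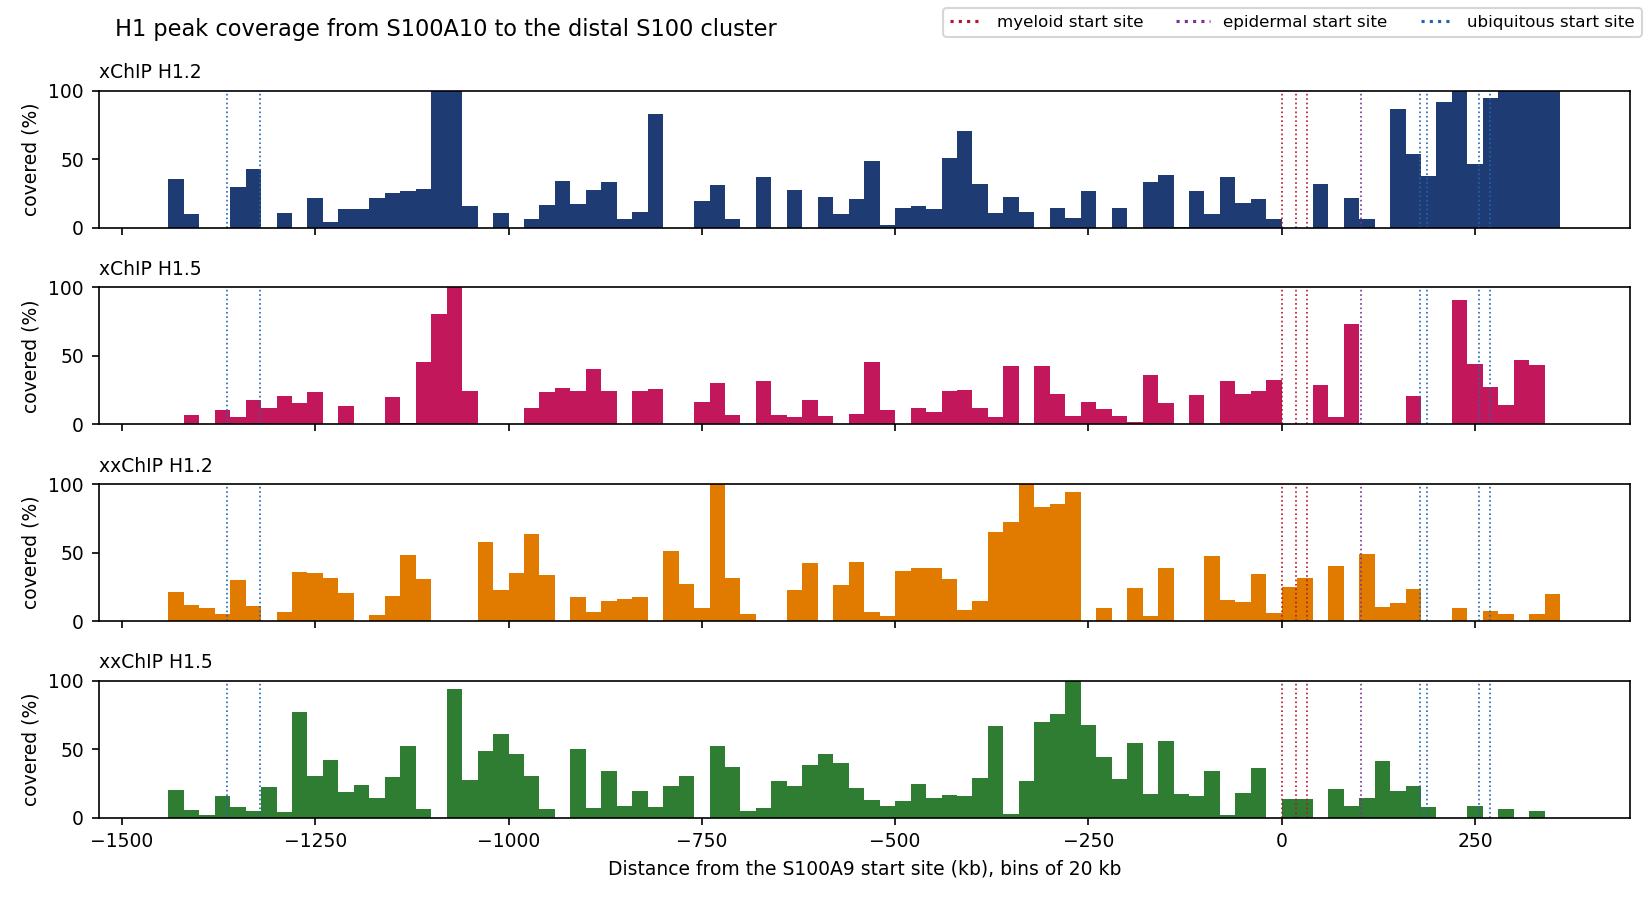
Percent of each 20 kb bin under H1 peaks (y axis) against distance in kb from the S100A9 start site (x axis) in the 4 lists; dotted lines are the start sites of the myeloid (red), epidermal (purple) and ubiquitous (blue) genes. To the right of S100A7 several xChIP H1.2 bars between and beyond the ubiquitous start sites are near 100%. The bins with the starts of S100A6, S100A4 and S100A16 are lower at 53.7%, 37.9% and 46.5%. The highest xxChIP bars are in the stretch between S100A11 and S100A9. That stretch also holds xChIP H1.2 bars of 100%, at -1090 and -1070 kb.

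The neighbouring genes of 1q21 were measured in the same way. Over 7 other S100 genes of the cluster the median coverage of TSS ± 20 kb was 45.8% in xChIP H1.2, 17.0% in xChIP H1.5, 6.50% in xxChIP H1.2 and 7.40% in xxChIP H1.5, with promoter peaks at 3 of 7 in xChIP H1.2 and at 0 of 7 in the other lists. In xChIP H1.2 they ran from 10.8% at S100A7L2, annotated as a pseudogene beside S100A7, to 84.8% at S100A1, which overlaps S100A13. Over 43 genes of the epidermal differentiation complex the medians were 15.99%, 15.5%, 30.2% and 29.0%, with promoter peaks at 5, 5, 13 and 13 genes. Over all protein-coding genes the medians were 34.5%, 13.4%, 7.79% and 6.12%. Promoter peaks were found at 47.2%, 20.7%, 7.87% and 7.14% of all genes, the background for both sets. S100A7, the epidermal member, was near the median of the complex in xChIP H1.2, at 13.96%, and above it in xChIP H1.5, at 36.5%. Its xxChIP values of 24.4% and 12.8% were below. The myeloid medians of 3.04%, 9.45%, 23.04% and 7.92% were below those of the complex in all 4 lists. In xChIP H1.2 the complex ran from 0% at SPRR2D to 35.9% at LCE1A, a range that takes in all 3 myeloid values. Low xChIP H1.2 with higher xxChIP H1.2 coverage was thus not particular to the myeloid genes.

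The sequence around the genes could be placed uniquely for the most part. The share of 50-base words found once in the genome was between 91.6% and 100% over the promoters and between 92.5% and 98.5% over TSS ± 20 kb of the 10 genes. It was lowest at the promoters of S100A11, 91.6%, and S100A12, 92.4%, both of which held a peak. It was 100% at those of S100A8, S100A9 and S100A6, which held none, and at those of S100A13 and S100A16, which held peaks. The part of uniqueness in the presence or absence of peaks was not tested. The GC content of TSS ± 20 kb was 43.9% at S100A10 and 43.98% at S100A11, between 45.5% and 48.2% at the myeloid genes and S100A7, and between 50.4% and 51.0% at the 4 distal ubiquitous genes, beside a median of 44.5% over all genes. The GC content and the xChIP H1.2 coverage were thus both highest at the distal ubiquitous genes. The orders differed elsewhere. S100A10 and S100A11 had the lowest GC content, but their xChIP H1.2 coverage of 11.1% and 23.3% exceeded the 0% to 8.78% of the myeloid genes. The part of base composition in the peak coverage was not tested.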

How the data were processed

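H1.2 and H1.5 were mapped by xChIP-seq and xxChIP-seq in HL-60/S4 cells. The authors sequenced paired ends, aligned reads to hg19 with Bowtie2, called peaks per replicate with MUSIC and merged the 3 replicates. Each deposited list gives chromosome, start and end only, without counts, scores or replicate columns, so samples were grouped by list and precision could not be estimated. Starts were converted to 1-based positions. Genes were taken from GENCODE v44lift37 on GRCh37, with the canonical transcript's start as TSS, or the gene's annotated start for 279 protein-coding genes without such a transcript. No peak ran past a chromosome end. Coverage is the percent of bases under peaks, and an overlap needs at least 1 bp. The coverage arithmetic was tested on simulated windows. No test was run and no p-value is given. All 10 genes were named. Of the lists beside them, some genes with the highest or lowest values were named. Some neighbours of the 10 genes and partners of S100 proteins were named as well. The genes, classes and lists were chosen with earlier results of these data known. Other window widths, overlaps, peak lengths, start sites and a scaling were tried. The read length was not given in the sources used here. Python 3.11.15, numpy 2.4.6, numba 0.67.0 and matplotlib 3.10.9 were used.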

Additional observations from a re-analysis of the deposited data

How the results depend on the processing

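No paired analysis was possible because each list merges its 3 replicates and no test was run. For the same reason no replicate could be left out, and depth is unknown. Of 80 recomputed values, 38 stayed within the limits set for an unchanged value, 40 moved and 2 changed direction, and the cause was not tested. Keeping only peaks of at least 1000 bp could change no value, because the shortest peak in the TSS ± 20 kb windows had 1018 bp. The values recomputed with that filter are counted among the 38. With values in the order H1.2 then H1.5, xChIP before xxChIP, gene bodies covered to at least 50% numbered 1, 0, 0 and 0, against 31%, 4.88%, 2.2% and 1.8% of all protein-coding genes. Promoters with a peak numbered 0 in xChIP H1.5 with TSS ± 500 bp (14.2% of all genes). With TSS ± 2500 bp there were 3 in each xxChIP list (20.4% for H1.2 and 18% for H1.5). At 50% coverage there were 0 in xChIP H1.5 (9.47%) and in xxChIP H1.5 (3.13%), and with any annotated start 2 in xChIP H1.5 (42.4%) and in xxChIP H1.2 (27.6%).

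With TSS ± 20 kb the median coverage over the 10 genes was 18.6%, 12.5%, 13.8% and 11.4%, against 34.5%, 13.4%, 7.79% and 6.12% over all genes. With TSS ± 10 kb the median over the 10 genes was 15.8% in xChIP H1.2, 6.37% in xxChIP H1.2 and 8.58% in xxChIP H1.5. With TSS ± 50 kb it was 17.7%, 14.7%, 11.8% and 11.1%. Without body and promoter it was 17.5% in xChIP H1.2, 15.1% in xxChIP H1.2 and 13.3% in xxChIP H1.5. Over the union of windows the pooled share of bases under peaks, not a median, was 31.9%, 20.1%, 12.7% and 9.65%. The myeloid minus ubiquitous difference was −33.7, −16.8, 13.03 and 6.51 points with TSS ± 10 kb, of which the last changed direction. With TSS ± 50 kb it was −58.3 in xChIP H1.2, 9.47 in xxChIP H1.2 and 1.24 in xxChIP H1.5, again a change of direction in the last. Over the unions, as a difference of pooled shares, it was −39.4, −5.03, 8.58 and −2.52. With TSS ± 1000 bp, higher coverage was found at 3 genes for xChIP H1.2 over xxChIP H1.2 (46.3% of all genes), 1 for xChIP H1.5 over xxChIP H1.5 (19.9%), 3 for xChIP H1.2 over xChIP H1.5 (41.4%) and 1 for xxChIP H1.2 over xxChIP H1.5 (6.34%). With coverage divided by each list's median, xChIP H1.2 exceeded xxChIP H1.2 at 3 genes and exceeded xChIP H1.5 at 3 genes.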

Other observations

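The receptors and partners of S100 proteins lie on other chromosomes or loci and were measured in the same windows. Over AGER, which encodes RAGE, TLR4 and BSG, receptors of S100A8, S100A9 or S100A12, and the annexins ANXA1, ANXA2 and ANXA6, the median coverage of TSS ± 20 kb was 35.1% in xChIP H1.2, 12.5% in xChIP H1.5, 5.29% in xxChIP H1.2 and 6.40% in xxChIP H1.5. Promoter peaks were found at 3, 1, 0 and 0 of the 6 genes, against 47.2%, 20.7%, 7.87% and 7.14% of all protein-coding genes. The medians over all protein-coding genes were 34.5%, 13.4%, 7.79% and 6.12%. TLR4, a sensor of bacterial lipopolysaccharide, had the lowest xChIP H1.2 and the highest xxChIP values of the 6, with 0%, 6.78%, 46.4% and 40.1% in the order above. BSG was at the other end, with 67.3% in xChIP H1.2 and 0% in the other 3 lists. ANXA2 and ANXA1 were named for their S100 partners, with their values known. ANXA2, the partner of S100A10, had 31.9%, 22.2%, 17.0% and 6.07%, and ANXA1, a partner of S100A11, had 2.34%, 11.4%, 10.6% and 22.3%.

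Over the 4 S100 genes outside 1q21, S100B, S100G, S100P and S100Z, the medians were 63.7%, 21.7%, 2.96% and 10.1% in the same order. Promoter peaks were found at 3, 0, 0 and 1 genes, and the values over all genes are those given above. In xChIP H1.2 they ran from 2.88% at S100G, the intestinal calcium carrier calbindin-D9k, to 100% at S100Z. In the epidermal differentiation complex the highest xxChIP values were 92.7% at SPRR2B for H1.2 and 92.2% at SPRR2E for H1.5. Both are genes for small proline-rich proteins of the cornified envelope. The lowest xxChIP values there were 0% at LCE2A for H1.2 and 5.88% at CRNN for H1.5.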
